A study of Sus scrofa with 48 samples.

Results

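The genes described are those through which catecholamines and cyclic AMP (cAMP) control lipolysis in fat cells. They are the β1- and β3-adrenergic receptors (*ADRB1*, *ADRB3*), the α2A-adrenergic receptor (*ADRA2A*), the stimulatory G protein α subunit (*GNAS*), adenylyl cyclase 6 (*ADCY6*), phosphodiesterase 3B (*PDE3B*), and the catalytic (*PRKACA*, *PRKACB*) and regulatory (*PRKAR2B*) subunits of protein kinase A. Probes were taken by the gene symbol that the array files give them. Of the 9 genes, 8 had at least 1 probe, and these 8 were among the 13902 symbols on the array. They had 34 probes, of which 29 were among the 44356 probes kept of 60305 on the array. Kept probes are those whose signal stood well above background on 9 or more of the 12 arrays in 1 or more of the groups. *PDE3B*, the phosphodiesterase through which insulin lowers cAMP in adipocytes, had 0 probes under its symbol, so that no level is given for it.

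Transcripts were measured with 1-colour arrays in dorsal subcutaneous adipose tissue (SCAT) of 48 Large White barrows aged 132 days, with 1 array per pig. The pigs came from a pair of lines bred apart on residual feed intake (RFI), which is feed intake beyond that predicted, so that low RFI pigs are the more efficient ones. They received with free access either a diet rich in fat and fiber (HF) or a diet low in fat and fiber and rich in starch (LF). Each diet was given to 12 pigs of each line, which makes 4 groups, HF low RFI and HF high RFI on the one diet and LF low RFI and LF high RFI on the other. Fat, fiber and starch all differed between the diets, and their contributions cannot be told apart. All results come from whole tissue, in which fewer cells of a type and less RNA per cell cannot be told apart.

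In a fat cell, noradrenaline and adrenaline bind β-adrenergic receptors, the stimulatory G protein activates adenylyl cyclase, and the cAMP that is formed releases the catalytic subunits of protein kinase A from their regulatory subunits. The kinase then phosphorylates perilipin and hormone-sensitive lipase on the lipid droplet, and stored triacylglycerol is broken down. The α2A receptor couples to an inhibitory G protein and lowers cAMP, and phosphodiesterases degrade it. *PRKAR2B* encodes a regulatory subunit that is abundant in adipose tissue and brain.

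Values are log2 of the processed signal minus the array median over the kept probes, so that 0 stands for the array's median kept probe. A difference is a log2 fold change, HF minus LF or low minus high RFI, fitted with limma on all 48 arrays. It is mostly given with its standard error (SE), and often with its 95% interval. A probe was called differentially expressed when its unadjusted p was under 0.01, its fold change exceeded 1.1 and its p adjusted by Benjamini-Hochberg over all kept probes was under 0.08. These cut-offs follow the study's methods. Between 62.2% and 81.9% of the probes of an array were well above background, and the array median before centring lay between 7.92 and 8.78 (log2). The 6 slides held 2 arrays of each group, and the 2 scan dates held 6 arrays of each group. The 8 positions on a slide were not balanced, with 0 to 4 arrays of a group at a position.

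The tissue label was checked against marker genes. All 11 adipocyte markers had a kept probe, and their summed level lay between 11.17 and 11.75 (log2) over the arrays. HF pigs had less leptin (*LEP*, -0.67, adjusted p = 0.00493) and less of the lipid droplet protein *CIDEA* (-0.36, adjusted p = 0.0149). The summed level of the 7 fibroblast and stromal markers lay between 10.35 and 11.20 in HF pigs and between 9.87 and 11.49 in LF pigs. The collagen gene *COL1A2* (0.36, adjusted p = 0.0636) and the progenitor marker *PDGFRA* (0.31, adjusted p = 0.0662) were higher under the HF diet. Of 8 nerve markers 5 had a kept probe, among them the neuronal hydrolase *UCHL1*, which was lower in HF pigs (-0.86, adjusted p = 0.0171). Tyrosine hydroxylase and dopamine β-hydroxylase, the enzymes of noradrenaline synthesis, had no probe. No marker of macrophages, endothelium, blood or muscle was called by diet, and no marker of any of the 7 lists was called by line. The part of these cell types in the results that follow was not tested.

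The probe sequences show what each value rests on. Each probe has 60 bases and is printed 5′ to 3′ as in the array files, whole or as a stretch of 30 bases. Whether a probe lies in coding sequence was not checked against a transcript. The pair for *ADRB1* lies over the same stretch of the receptor, shifted by 6 bases. Capitals mark the 5 of 54 compared bases at which they differ.
ADRB1 A_72_P440476: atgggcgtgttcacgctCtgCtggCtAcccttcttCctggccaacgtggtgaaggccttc
ADRB1 O8687: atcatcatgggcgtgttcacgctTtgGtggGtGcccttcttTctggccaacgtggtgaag
The other receptor probes kept are these, all in lower case because no part of them is singled out.
ADRB3 A_72_P177831: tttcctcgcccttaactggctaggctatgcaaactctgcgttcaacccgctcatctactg
ADRB3 A_72_P413603: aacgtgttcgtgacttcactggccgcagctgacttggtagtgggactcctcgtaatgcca
ADRA2A A_72_P177701: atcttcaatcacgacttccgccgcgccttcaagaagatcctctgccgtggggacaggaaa

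For the G protein, the cyclase and the kinase, the printed sequences are those of probes on which a difference between groups or a contrast between probes turns. Capitals mark a run of 12 bases, GGGGGGAGGGGG, that a *GNAS* probe and an *ADCY6* probe share and that 3 of the 60305 probes on the array hold (0.00497%). The first sequence is the end of its probe (bases 31 to 60) and the next is the start of its probe (bases 1 to 30).
GNAS A_72_P348513: agaatactattctgttgtGGGGGGAGGGGG
ADCY6 A_72_P192417: GGGGGGAGGGGGgtgtaccatgtatttcag
The next *GNAS* sequences stand for probes that varied differently between pigs, the first given whole and the others by their first 30 bases.
GNAS A_72_P550778: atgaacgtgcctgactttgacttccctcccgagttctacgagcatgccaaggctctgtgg
GNAS A_72_P146781: ctttacccttccgcttgcttaaatattcca
GNAS A_72_P537682: cttccgggggcggggtgggcgtggctatgg
The other cyclase probe is given whole, and the kinase probes by their first 30 bases.
ADCY6 O13026: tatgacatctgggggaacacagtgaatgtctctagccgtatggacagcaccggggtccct
PRKACA A_72_P090021: ggacgcaacttcctcttgaacagtgtgctg
PRKAR2B O9264: ggcctagaaatcacataagagtatactgat

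Diet was the first comparison. Of the 29 probes, 1 was called, a *GNAS* probe higher under the HF diet. This is 3.45% of the probes against 13.1% of all kept probes called by diet. *GNAS* has 17 of the 29 probes, and 15 of these varied together (r from 0.55 to 0.99). Shares over the 29 probes thus weigh this gene many times, for diet and for line. At the probe with the highest mean signal none of the 8 genes was called by diet, where 12.7% of all genes were. The direction of the 29 estimates was mixed, with a median of -0.02 and a range from -0.37 to 0.20, and the median over all kept probes was also -0.02. At an unadjusted p under 0.05 there were 2 of the 29 probes (6.9%) against 25.5% of all kept probes. Within the low RFI line 0 of the 29 probes were called by diet, where 3.04% of all kept probes were, with 1 at an unadjusted p under 0.05 and a smallest adjusted p of 0.163. Within the high RFI line 0 were called as well, against 1.66% of all kept probes, with 0 at an unadjusted p under 0.05 and a smallest adjusted p of 0.47.

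By line, 0 of the 29 probes were called, where 1.37% of all kept probes were. The smallest adjusted p was 0.356, and 1 of the 29 probes (3.45%) had an unadjusted p under 0.05 against 10.4% of all kept probes. The estimates ran from -0.16 to 0.18 with a median of -0.01. For the interaction between diet and line, 0 probes of the array were called (0.0%) in the limma fit. None of the 29 had an unadjusted p under 0.05, against 1.04% of all kept probes, and all had an adjusted p of 1.0. Intervals or SEs are given for most probes, singly or over a set of probes, since a missed threshold does not show that groups were alike.

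**Figure D1:**
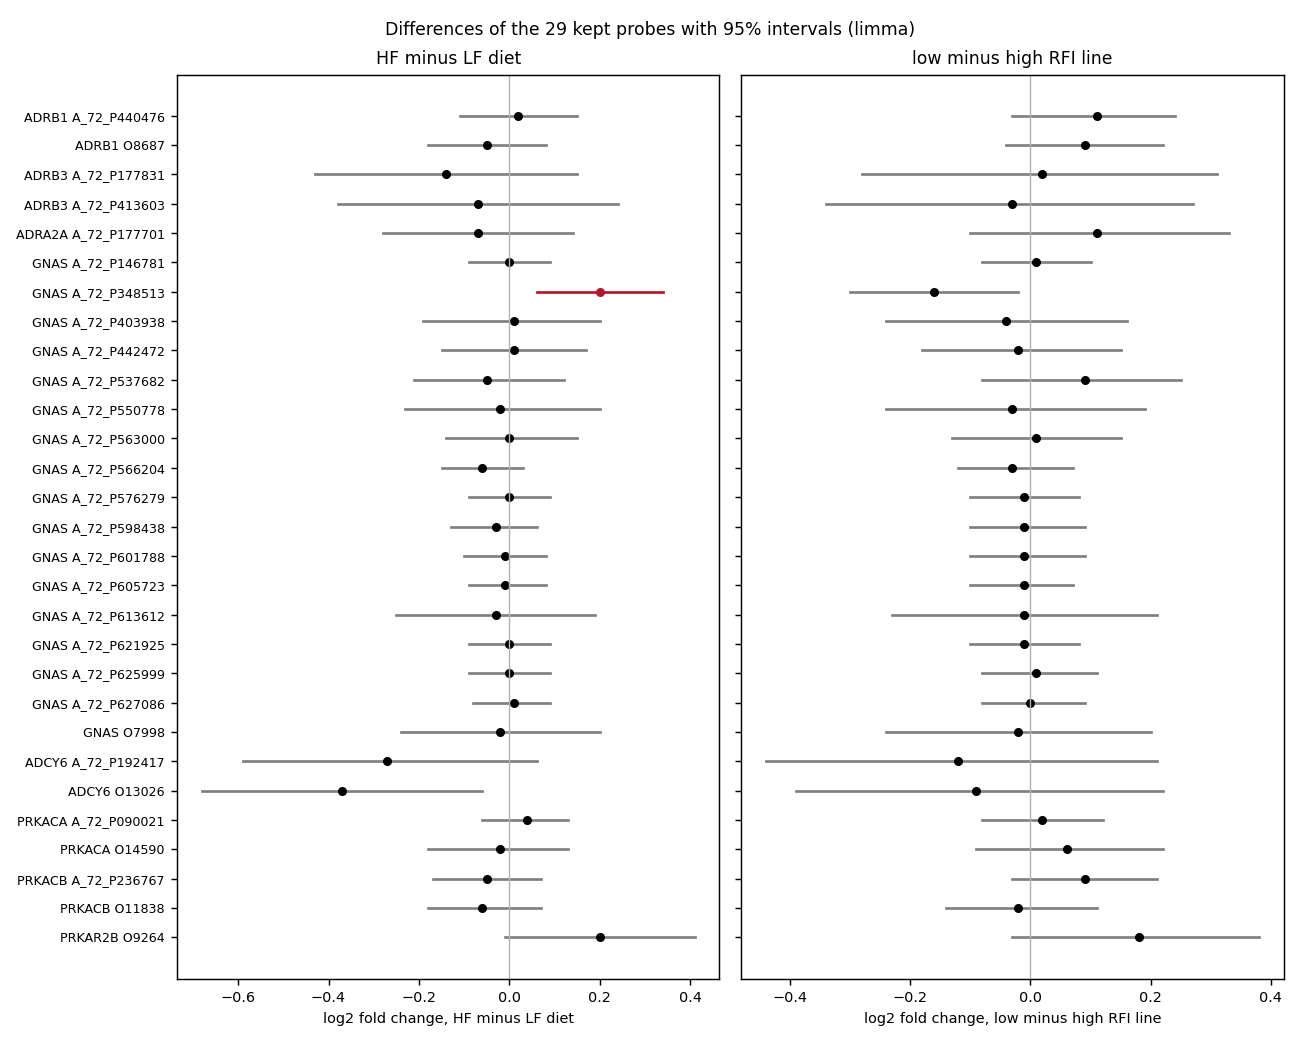
Log2 fold changes of the 29 kept probes (points) with 95% intervals (lines), HF minus LF diet on the left and low minus high RFI line on the right, with a called probe in red. A single probe is red, *GNAS* A_72_P348513 under diet at 0.20, and the estimates lie between -0.37 and 0.20 for diet and between -0.16 and 0.18 for line.

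The receptors were taken first. *ADRB1*, the β1-adrenergic receptor, had 2 kept probes. At A_72_P440476 the lowest, median and highest values were -0.51, -0.35 and -0.01 in HF low RFI pigs, and -0.83, -0.47 and -0.03 in HF high RFI pigs. They were -0.64, -0.44 and 0.39 in LF low RFI pigs, and -0.81, -0.48 and -0.07 in LF high RFI pigs. The 4 groups overlapped over most of their range, and the highest value belonged to an LF low RFI pig. The diet estimate was 0.02 (SE 0.07, 95% interval -0.11 to 0.15, limma adjusted p = 0.883) and the line estimate 0.11 (SE 0.07, -0.03 to 0.24, adjusted p = 0.653).

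At the overlapping *ADRB1* probe O8687 the values were -2.03, -1.75 and -1.51 in HF low RFI pigs, and -2.33, -1.93 and -1.75 in HF high RFI pigs. They were -2.26, -1.80 and -1.35 in LF low RFI pigs, and -2.13, -1.82 and -1.46 in LF high RFI pigs. Here too all groups overlapped. HF minus LF gave -0.05 (SE 0.06, -0.18 to 0.08, adjusted p = 0.669) and the line estimate 0.09 (SE 0.06, -0.04 to 0.22, adjusted p = 0.721). Both intervals at both probes lay within -0.18 to 0.24.

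*ADRB3*, the β3-adrenergic receptor through which catecholamines drive lipolysis in rodent fat, was near the detection limit. Its probe A_72_P177831 stood well above background in 40 of 48 pigs, in 11 of 12 in HF low RFI, 8 in HF high RFI, 9 in LF low RFI and 12 in LF high RFI. Its lowest, median and highest values were -4.53, -3.72 and -2.87 in HF low RFI pigs, and -4.75, -3.89 and -2.87 in HF high RFI pigs. They were -4.89, -3.60 and -2.84 in LF low RFI pigs, and -4.19, -3.57 and -2.99 in LF high RFI pigs. The ranges of all groups lay over each other. The fitted diet difference was -0.14 (SE 0.15, -0.43 to 0.15, adjusted p = 0.591) and the line estimate 0.02 (SE 0.15, -0.28 to 0.31, adjusted p = 0.99).

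The other kept *ADRB3* probe, A_72_P413603, was well above background on 35 arrays, on 10, 8, 7 and 10 of 12 in the same order of groups. Its values were -5.08, -4.00 and -3.16 in HF low RFI pigs, and -4.99, -4.10 and -3.23 in HF high RFI pigs. They were -5.00, -4.07 and -3.45 in LF low RFI pigs, and -4.72, -3.77 and -3.06 in LF high RFI pigs. No group stood apart. The estimates were -0.07 for diet (SE 0.15, -0.38 to 0.24, adjusted p = 0.815) and -0.03 for line (SE 0.15, -0.34 to 0.27, adjusted p = 0.981).

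The precision for *ADRB3* can be read from probes that hold the same letters. A probe that was not kept, O14670, has all 60 bases of A_72_P413603 and was well above background on 8 arrays. After the group means were removed, the pair correlated with r = 0.48 over the 48 pigs, as a description over points that share arrays. The 2 kept *ADRB3* probes, which lie on different stretches, had r = 0.53.

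*ADRA2A*, the α2A receptor that restrains lipolysis, had 1 kept probe. At A_72_P177701 the lowest, median and highest values were -1.66, -1.27 and -0.28 in HF low RFI pigs, and -1.80, -1.28 and -0.73 in HF high RFI pigs. They were -1.70, -1.16 and -0.42 in LF low RFI pigs, and -1.67, -1.27 and -0.36 in LF high RFI pigs. The medians of the groups lay close together and the ranges overlapped. By diet the difference was -0.07 (SE 0.11, -0.28 to 0.14, adjusted p = 0.734) and the line estimate 0.11 (SE 0.11, -0.10 to 0.33, adjusted p = 0.837). The other *ADRA2A* probe, O11018, was well above background on 2 arrays and was not kept. It shares at most 7 bases in a row with the kept probe on either strand, and 14 with the opposite strand of a probe for *ADRA2B*, the α2B receptor.

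**Figure D2:**
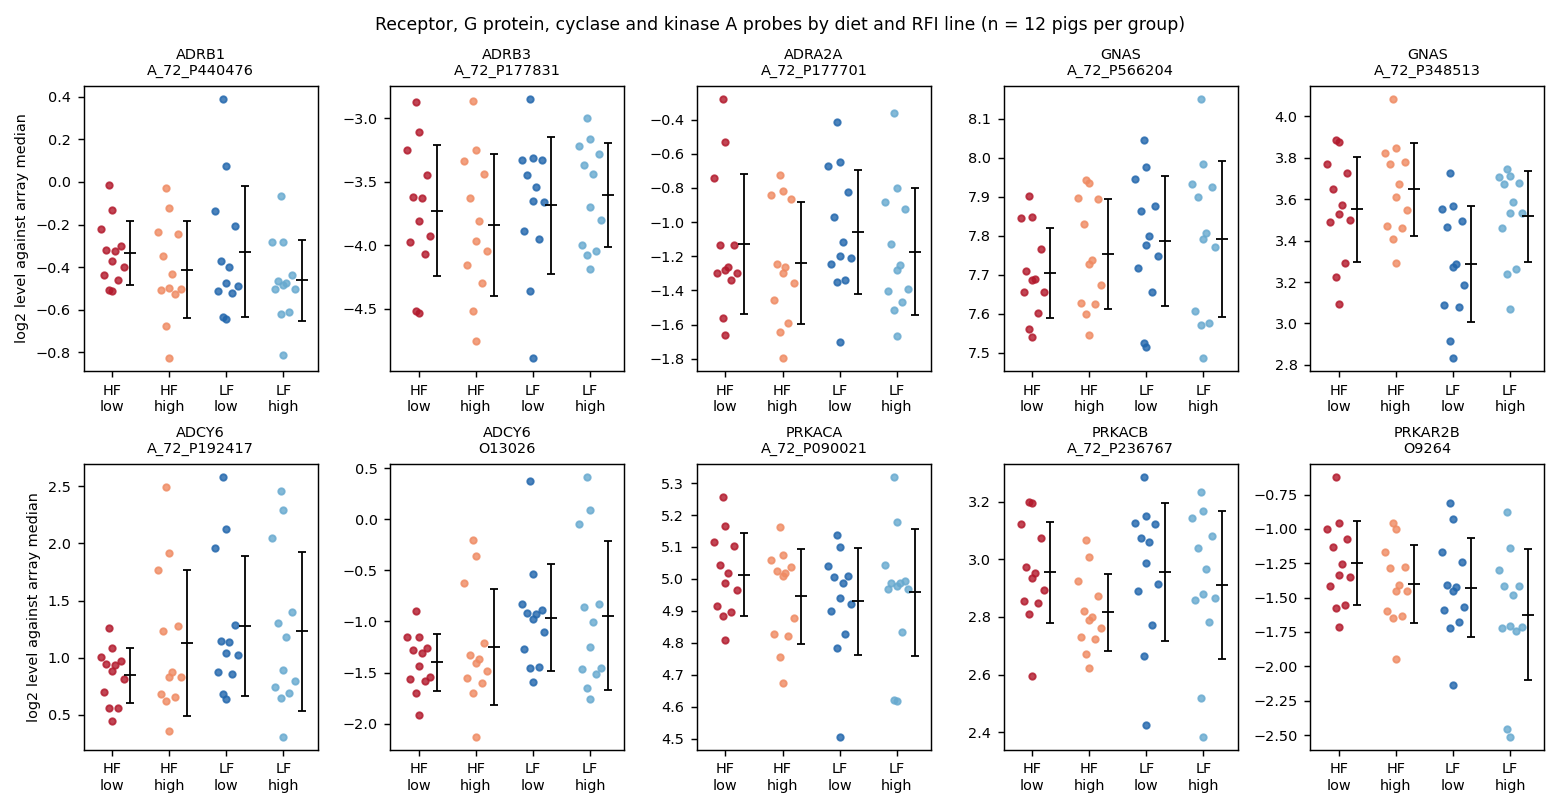
Log2 level per pig (points; 0 is the median kept probe of the array) at 10 probes of the 8 genes, in low and high RFI pigs of the HF and then of the LF diet, with the group mean and SD (bar) beside the points, n = 12 pigs a group. The 4 groups overlap in each panel, and a few pigs stand high at the *ADCY6* probes in 3 groups but not in HF low RFI pigs.

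*GNAS*, the α subunit that carries the signal from β receptors to adenylyl cyclase, was covered by 17 kept probes of 20, more than any other of the 8 genes. A single one was called by diet. At A_72_P348513 the lowest, median and highest values were 3.09, 3.55 and 3.89 in HF low RFI pigs, and 3.29, 3.64 and 4.09 in HF high RFI pigs. They were 2.83, 3.28 and 3.73 in LF low RFI pigs, and 3.07, 3.56 and 3.75 in LF high RFI pigs. LF low RFI pigs had the lowest median, and the medians of the other 3 groups lay between 3.55 and 3.64. Of the 24 HF pigs, 17 were above the median of the LF pigs, 8 were above every LF pig and 16 were within the LF range.

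The mean at A_72_P348513 was 3.55 ± 0.25 (SD, n = 12) in HF low RFI, 3.65 ± 0.22 in HF high RFI, 3.29 ± 0.28 in LF low RFI and 3.52 ± 0.22 in LF high RFI pigs. The diet estimate was 0.20 (SE 0.07, 0.06 to 0.34, limma adjusted p = 0.0596), with 0.26 (SE 0.10, adjusted p = 0.163) in the low RFI line and 0.13 (SE 0.10, adjusted p = 0.601) in the high RFI line. The difference between the lines in this estimate was 0.13 (SE 0.14, adjusted p = 1.0 for the interaction). By line the probe had -0.16 (SE 0.07, -0.30 to -0.02), the 1 probe of the 29 under an unadjusted p of 0.05, with an adjusted p of 0.356. Within the first scan date the diet estimate was 0.14 (SE 0.10, adjusted p = 0.489) and within the second 0.26 (SE 0.10, adjusted p = 0.196). Over 17 other settings the estimate ran from 0.14 to 0.26 and the adjusted p from 0.0201 to 0.489, and the call held in 11 of them. It was lost within each scan date, with array position as a block (0.16, adjusted p = 0.225), with the array median as a covariate (0.18, adjusted p = 0.0832), with the median signal (0.19, adjusted p = 0.0833) and without a filter on dim probes (0.19, adjusted p = 0.112).

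The other 16 *GNAS* probes had diet estimates between -0.06 and 0.01, with SEs of 0.04 to 0.11, intervals between -0.25 and 0.20 and a smallest adjusted p of 0.441. By line they lay between -0.04 and 0.09 with a smallest adjusted p of 0.842. At A_72_P566204, the probe with the highest mean signal of the gene, the values were 7.54, 7.69 and 7.90 in HF low RFI, and 7.55, 7.73 and 7.94 in HF high RFI pigs. They were 7.51, 7.79 and 8.05 in LF low RFI, and 7.48, 7.80 and 8.15 in LF high RFI pigs. The diet estimate there was -0.06 (SE 0.05, -0.15 to 0.03, adjusted p = 0.441), the most negative of the 16. Its interval and that of A_72_P348513 do not meet. Intervals of other *GNAS* probes do overlap that of A_72_P348513, such as -0.09 to 0.09 at A_72_P146781 and -0.23 to 0.20 at A_72_P550778. The difference between probes was not tested.

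The *GNAS* probes fell into sets by sequence and by spread. Of these, 6 share runs of 16 to 41 bases with each other over 1 short window (A_72_P146781, A_72_P576279, A_72_P598438, A_72_P601788, A_72_P605723 and A_72_P627086). They had the narrowest spread, with an SD within groups of 0.14 to 0.16, and diet intervals within -0.13 to 0.09. The group medians of A_72_P146781 were 7.51 in HF low RFI, 7.50 in HF high RFI, 7.56 in LF low RFI and 7.55 in LF high RFI pigs. A further 3 probes (A_72_P566204, A_72_P621925 and A_72_P625999) had SDs of 0.15 to 0.16 and diet intervals within -0.15 to 0.09.

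A wider spread was seen at A_72_P403938, A_72_P442472, A_72_P550778, A_72_P563000, A_72_P613612 and O7998, with SDs of 0.25 to 0.39. The last 2 share 57 bases. At A_72_P550778 the values were 3.20, 3.80 and 4.42 in HF low RFI, and 3.09, 3.70 and 4.30 in HF high RFI pigs. They were 3.33, 3.68 and 4.33 in LF low RFI, and 2.92, 3.87 and 4.59 in LF high RFI pigs. Its diet estimate was -0.02 (SE 0.11, -0.23 to 0.20, adjusted p = 0.948). Over the 6 probes the diet estimates lay between -0.03 and 0.01, the slide took 37.7% to 52.9% of the variance within groups, and the correlation with the array median was 0.53 to 0.70. With the array median as a covariate their diet estimates lay between -0.19 and -0.08, and none was called.

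The remaining *GNAS* probe, A_72_P537682, had values of -1.25, -0.84 and -0.34 in HF low RFI, and -1.30, -0.87 and -0.56 in HF high RFI pigs. They were -1.18, -0.80 and -0.30 in LF low RFI, and -1.23, -0.94 and -0.38 in LF high RFI pigs. It had a diet estimate of -0.05 (SE 0.08, -0.21 to 0.12, adjusted p = 0.776). It varied against the rest of the gene, with r between -0.74 and -0.11 with the other *GNAS* probes and r = -0.77 with the array median. Without it and A_72_P348513, the 15 probes correlated with each other with r from 0.55 to 0.99 (median 0.77 over 105 pairs). A_72_P348513 had r from -0.11 to 0.30 with the other *GNAS* probes, with a median of 0.21. These correlations are descriptions over 48 pigs whose values share arrays and, for some pairs, bases. The 3 *GNAS* probes that were not kept were well above background on 3, 3 and 0 arrays.

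**Figure D3:**
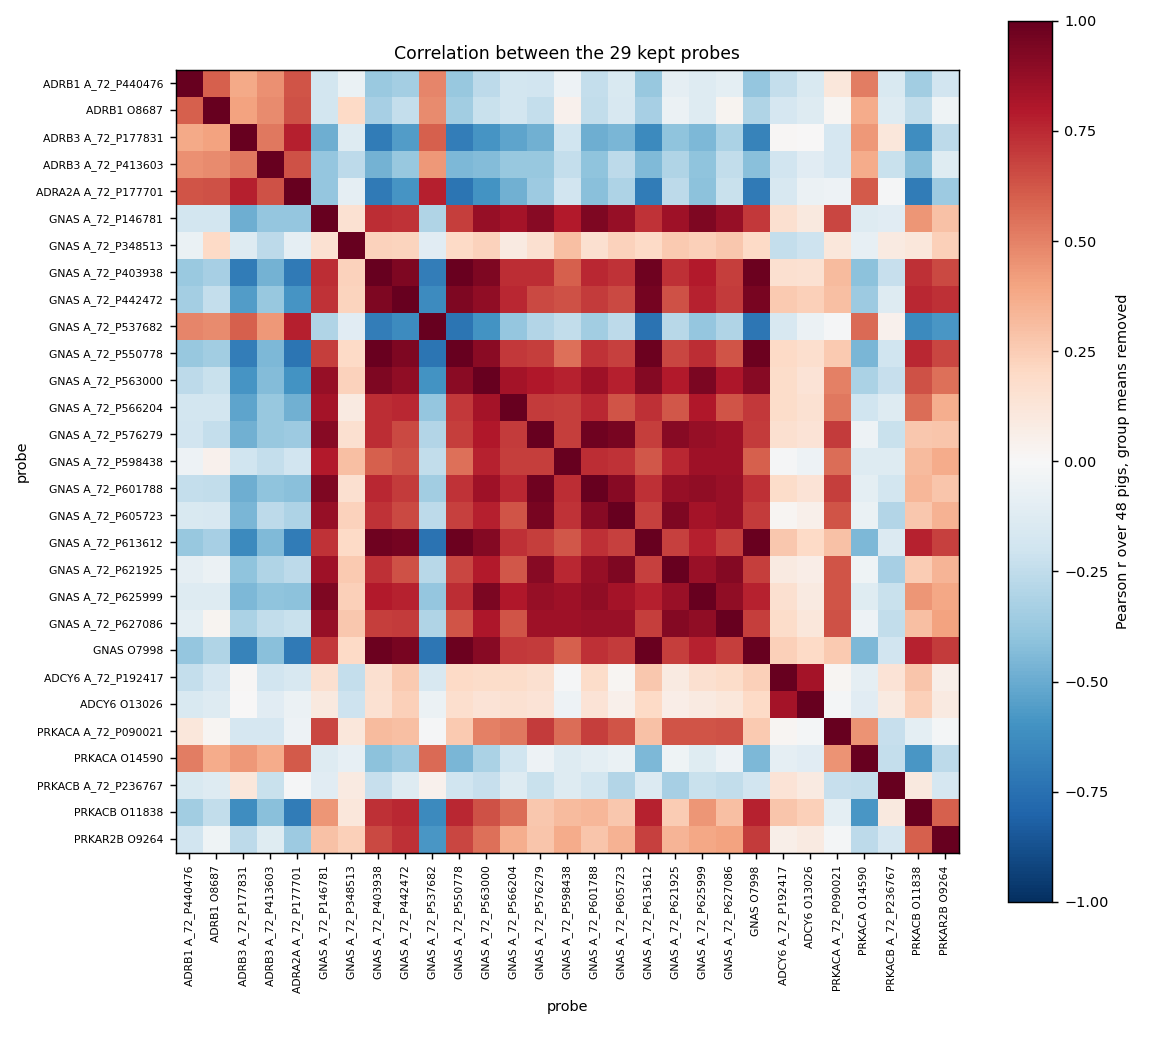
Pearson r between the 29 kept probes over 48 pigs after the group means were removed, with probes ordered by gene. Most *GNAS* probes form a block with r from 0.55 to 0.99, from which A_72_P537682 and A_72_P348513 stand apart, and the pair of *ADCY6* probes has r = 0.83.

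*ADCY6*, a cyclase that the stimulatory G protein activates, gave the most negative diet estimates of the 29. At O13026 the lowest, median and highest values were -1.91, -1.37 and -0.90 in HF low RFI pigs, and -2.13, -1.39 and -0.20 in HF high RFI pigs. They were -1.59, -0.95 and 0.37 in LF low RFI pigs, and -1.76, -1.13 and 0.41 in LF high RFI pigs. Of the 24 LF pigs 16 were above the median of the HF pigs, and 22 of the 24 HF pigs were within the LF range. The means were -1.40 ± 0.28 (SD, n = 12), -1.25 ± 0.57, -0.96 ± 0.52 and -0.94 ± 0.73 in the same order of groups. HF minus LF gave -0.37 (SE 0.15, -0.68 to -0.06), with an unadjusted p of 0.0199 and a limma adjusted p of 0.112, so that it was not called. A block for array position gave -0.48 (adjusted p = 0.0651) and the probe was then called. It was -0.44 (adjusted p = 0.191) within the first scan date and -0.30 (adjusted p = 0.503) within the second. The line estimate was -0.09 (SE 0.15, adjusted p = 0.942).

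At the other *ADCY6* probe, A_72_P192417, the values were 0.44, 0.91 and 1.26 in HF low RFI pigs, and 0.36, 0.85 and 2.49 in HF high RFI pigs. They were 0.63, 1.09 and 2.58 in LF low RFI pigs, and 0.31, 1.03 and 2.45 in LF high RFI pigs. The highest value in HF low RFI pigs was 1.26, below the highest of the other groups by more than 1 log2 unit, while the lowest values lay close together. The fitted diet difference was -0.27 (SE 0.16, -0.59 to 0.06, adjusted p = 0.303), with -0.43 in the low and -0.10 in the high RFI line, and an interaction of -0.33 (SE 0.32, adjusted p = 1.0). The line estimate was -0.12 (SE 0.16, -0.44 to 0.21, adjusted p = 0.915).

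The *ADCY6* probes varied together between pigs of a group, with r = 0.83 after the group means were removed. Their SDs within groups were 0.58 and 0.55, the widest of the 29 probes, and the slide took 7.7% and 11.8% of that variance. A_72_P192417 and *GNAS* A_72_P348513 share the run of G bases printed above, and their r was -0.24. The r of A_72_P348513 with O13026, which does not hold the run, was -0.21.

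For the catalytic subunits of protein kinase A no probe was called. At *PRKACA* A_72_P090021 the lowest, median and highest values were 4.81, 5.0 and 5.26 in HF low RFI pigs, and 4.67, 5.01 and 5.16 in HF high RFI pigs. They were 4.51, 4.96 and 5.14 in LF low RFI pigs, and 4.62, 4.98 and 5.32 in LF high RFI pigs. The medians of the 4 groups lay between 4.96 and 5.01. By diet the difference was 0.04 (SE 0.05, -0.06 to 0.13, adjusted p = 0.691) and the line estimate 0.02 (SE 0.05, -0.08 to 0.12, adjusted p = 0.959). At the other probe, O14590, the medians were -1.91, -1.81, -1.85 and -1.95 in the same order of groups, within a range from -2.50 to -1.28. The estimates there were -0.02 for diet (SE 0.08, -0.18 to 0.13, adjusted p = 0.883) and 0.06 for line (SE 0.08, adjusted p = 0.895).

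At *PRKACB* A_72_P236767, for the other catalytic subunit, the values were 2.59, 2.94 and 3.20 in HF low RFI pigs, and 2.62, 2.79 and 3.07 in HF high RFI pigs. They were 2.43, 3.02 and 3.28 in LF low RFI pigs, and 2.38, 2.92 and 3.23 in LF high RFI pigs. All groups overlapped. The diet estimate was -0.05 (SE 0.06, -0.17 to 0.07, adjusted p = 0.664) and the line estimate 0.09 (SE 0.06, -0.03 to 0.21, adjusted p = 0.679). At O11838 the group medians were 0.23, 0.16, 0.24 and 0.35 within a range from -0.14 to 0.83, and the diet estimate was -0.06 (SE 0.06, -0.18 to 0.07, adjusted p = 0.62). The line estimate at O11838 was -0.02 (SE 0.06, adjusted p = 0.974).

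*PRKAR2B*, the regulatory subunit RIIβ, had 1 probe under its symbol. At O9264 the lowest, median and highest values were -1.71, -1.30 and -0.62 in HF low RFI pigs, and -1.95, -1.43 and -0.95 in HF high RFI pigs. They were -2.14, -1.43 and -0.81 in LF low RFI pigs, and -2.51, -1.59 and -0.88 in LF high RFI pigs. HF low RFI pigs had the highest median and LF high RFI pigs the lowest, and 23 of the 24 HF pigs were within the LF range. HF minus LF gave 0.20 (SE 0.10, -0.01 to 0.41, unadjusted p = 0.0593, limma adjusted p = 0.217) and the line estimate 0.18 (SE 0.10, -0.03 to 0.38, adjusted p = 0.619). The fitted diet difference was 0.19 within the first scan date and 0.21 within the second.

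A probe outside the rule bears on *PRKAR2B*. A_72_P019416 has no gene name in the array files, and the study's own annotation assigns it to *PRKAR2B*. It was picked on these pigs because it changed, so that it is not independent evidence of a direction. Its lowest, median and highest values were -0.75, -0.24 and 0.16 in HF low RFI pigs, and -0.85, -0.16 and 0.71 in HF high RFI pigs. They were -1.44, -0.77 and -0.29 in LF low RFI pigs, and -1.61, -1.15 and -0.33 in LF high RFI pigs. All 24 HF pigs were above the LF median and 14 were above every LF pig. The diet difference was 0.73 (SE 0.11, 0.51 to 0.95), larger than the SD between pigs of 0.36 under HF and 0.43 under LF. The line estimate was 0.12 (adjusted p = 0.829). Over the 48 pigs, with group means removed, A_72_P019416 and O9264 had r = -0.06. Whether both probes read the same transcript could not be checked, since no pig transcript sequence was used here. A further pair of probes has no gene symbol but a description that names a member. A_72_P371118, described as the *GNAS* complex locus, had group medians of -0.54 in HF low RFI, -0.50 in HF high RFI, -0.64 in LF low RFI and -0.67 in LF high RFI pigs, and was not called by diet (0.08, SE 0.08, -0.08 to 0.23, limma adjusted p = 0.576). A_72_P262872, described as a β catalytic subunit of the kinase, was well above background on 1 or 2 arrays of each group and was not kept.

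The spread within groups was tied to the slide for part of the genes. At *ADRA2A* A_72_P177701 the slide took 76.2% of the variance within groups and the scan date 49.8%, against a median of 23.0% for the slide over 11798 genes. The level of this probe fell with the array median, with r = -0.77, outside the 5th to 95th percentile of those genes (-0.68 to 0.58). With the array median as a covariate its diet estimate changed sign, from -0.07 to 0.11 (adjusted p = 0.336), and that of *ADRB3* A_72_P177831 from -0.14 to 0.05 (adjusted p = 0.798), with no call on either side. For *ADRB3* the slide took 53.5% and 43.6% with r of -0.63 and -0.46, and for *ADRB1* 38.1% and 46.7% with r of -0.48 and -0.41. For *PRKAR2B* O9264 the slide took 46.2%. For *PRKACA* it took 12.0% at A_72_P090021 and 30.1% at O14590, with r of 0.03 and -0.57, and for *PRKACB* 1.77% at A_72_P236767 and 43.7% at O11838, with r of -0.24 and 0.56. Each slide held the same number of pigs of each group, so that slides did not differ in their share of a diet or line.

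**Figure D4:**
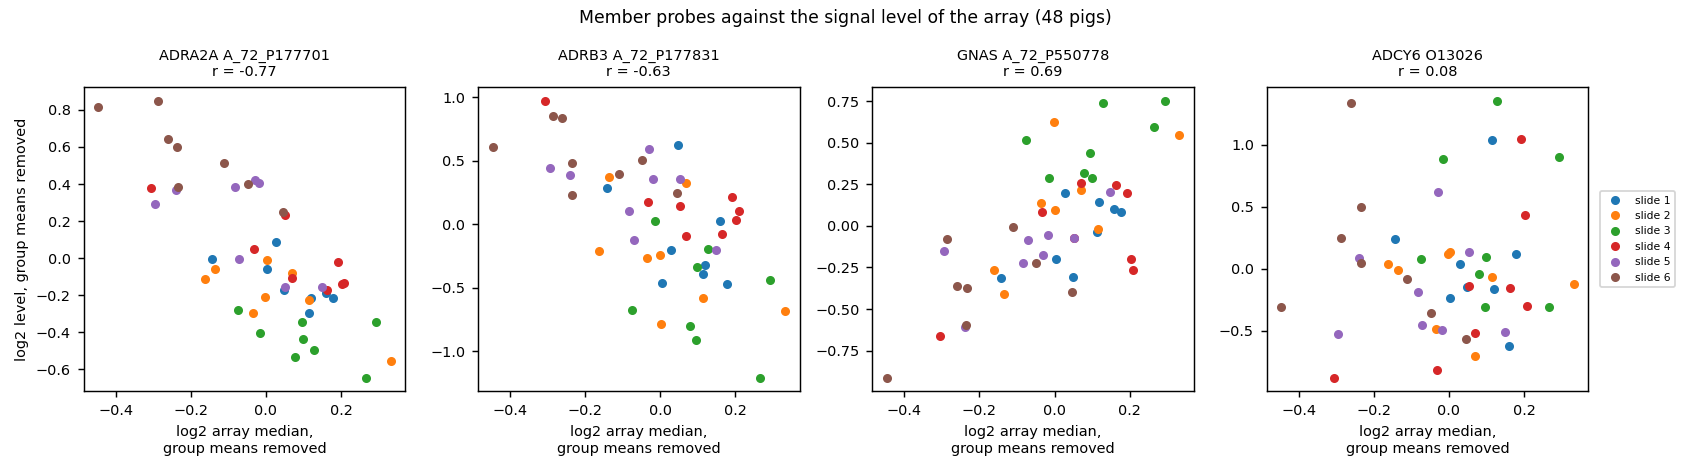
Log2 level of 4 probes against the log2 median of the array before centring, both with group means removed, one point per pig coloured by slide. The *ADRA2A* (r = -0.77) and *ADRB3* (r = -0.63) probes fall and the *GNAS* probe A_72_P550778 rises (r = 0.69) with the array median, and the *ADCY6* probe O13026 does not follow it (r = 0.08).

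Co-variation between the genes was computed over the 48 pigs, with group means removed and 1 probe a gene, the one with the highest mean signal. Of 28 pairs, 8 had a permutation p with a Benjamini-Hochberg adjusted value under 0.05 for Pearson's r (100000 resamples, two-sided), 5 positive and 3 negative. By Spearman's rho 5 of these 8 passed as well. With slide means removed 2 pairs passed and within the second scan date 3, all of them among the 8. Within the first scan date 2 passed, of which 1 was among the 8.

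The closest pair was *ADRB3* and *ADRA2A*, with r = 0.78 and rho = 0.78 (permutation p = 1e-05 for both, the smallest that 100000 resamples can give; adjusted p = 0.00014 and 0.00028). It had r = 0.76 without the 2 pigs farthest from the median on the x axis, 0.50 (adjusted p = 0.00476) with slide means removed, and 0.51 and 0.80 within the scan dates. *ADRB1* and *ADRA2A* had r = 0.63 and rho = 0.60 (permutation p = 1e-05 and 3e-05, adjusted p = 0.00014 and 0.000373) and r = 0.61 without 2 pigs. With slide means removed that pair had 0.29 (adjusted p = 0.243), and it had 0.31 and 0.62 within the scan dates. *ADRB1* and *ADRB3* had r = 0.38 and rho = 0.36 (permutation p = 0.00916 and 0.0135, adjusted p = 0.0408 and 0.057), with 0.34 without 2 pigs and -0.04 with slide means removed. That pair changed sign between the scan dates, with -0.25 within the first and 0.52 within the second.

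*GNAS* and *PRKACA* had r = 0.53 and rho = 0.46 (permutation p = 0.00012 and 0.00101, adjusted p = 0.00084 and 0.00566), with 0.55 without 2 pigs, 0.56 (adjusted p = 0.00168) with slide means removed, and 0.22 and 0.64 within the scan dates. With the mean of all kept probes of each gene in place of 1 probe the same pair had r = 0.02. *GNAS* was negatively related to *ADRB3* (r = -0.53, rho = -0.57, permutation test, adjusted p = 0.00084 and 0.000373) and to *ADRA2A* (r = -0.48, rho = -0.52, adjusted p = 0.00252 and 0.00126). With slide means removed these were -0.18 and -0.04, and within the scan dates -0.45 and -0.05 for *ADRB3*, and -0.46 and 0.05 for *ADRA2A*. *ADRA2A* with *PRKAR2B* had r = -0.36 and rho = -0.35 (permutation test, adjusted p = 0.0408 and 0.057), with -0.32 without 2 pigs, -0.25 with slide means removed, and -0.58 and -0.47 within the scan dates. *GNAS* with *PRKAR2B* had r = 0.36 and rho = 0.30 (permutation test, adjusted p = 0.0408 and 0.138), with 0.27 with slide means removed and 0.46 and 0.30 within the scan dates. Without 2 pigs it had 0.20 at these probes, and whether the relation rests on those pigs was not tested. With the mean of all kept probes of each gene it had 0.58 (permutation test, adjusted p = 0.00028). Over the other 6 pairs of the 8, apart from *GNAS* with *PRKACA*, that mean kept the sign, with r of 0.54 to 0.81 for the 3 pairs of receptors and of -0.58 to -0.36 for the 3 negative pairs.

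For each gene the 3 symbols with the most similar pattern were taken by Pearson's r over the 48 arrays, among 11762 symbols, as a description. *ADRA2A* was closest to *HNRNPA2B1* (r = 0.96), *C1ORF182* (0.95) and *PAX5* (0.95), which themselves had r of -0.78, -0.81 and -0.76 with the array median. *ADRB1* was closest to *WFDC2* (0.74), *ANXA10* (0.73) and *SDC3* (0.70), and *ADRB3* to *ASB8*, *SAP130* and *PRTN3* (0.81 each). *GNAS* was closest to *SDHD* (0.79), *LEPROT* (0.78) and *COQ5* (0.78), and *PRKACA* to *MCCC1* (0.82), *C9ORF114* (0.78) and *PSPH* (0.77). *PRKAR2B* was closest to *ASNS* (0.76), *DCAF5* (0.73) and *PGM3* (0.72). Lower values were found for *PRKACB*, with *C18orf21* (0.61), *FCRL2* (0.60) and *RSPH3* (0.57), and for *ADCY6*, with *TMED7* (0.53), *MPP6* (0.51) and *SMO* (0.50). In the order given, r with the array median was -0.40, -0.65 and -0.54 for the symbols of *ADRB1*, and -0.70, -0.79 and -0.68 for those of *ADRB3*. It was 0.37, 0.49 and 0.32 for *GNAS*, -0.03, -0.17 and 0.27 for *PRKACA*, and 0.64, 0.43 and 0.49 for *PRKAR2B*. For *PRKACB* it was -0.02, -0.18 and -0.08, and for *ADCY6* 0.52, 0.24 and 0.38.

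The other genes of the pathway were taken from 10 lists with 108 genes, of which 80 had a kept probe. At 1 probe a gene, 1 was higher and 3 were lower under the HF diet, where 12.7% of all genes were called by diet (398 higher, 1101 lower). The median diet estimate was -0.04 over the 80 genes and -0.04 over all genes. By line 1 was higher and 1 lower in low RFI pigs, where 1.31% of all genes were called, and the median was 0.03 against 0.02 over all genes.

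None of the 11 tested other hormone receptors, 5 other adenylyl cyclases, 10 other phosphodiesterases, and 8 receptor kinases and arrestins, and none of 5 genes of the natriuretic peptide arm, which acts in parallel through cyclic GMP, was called by diet or by line in the limma fit. Their median diet estimates were -0.07, 0.00, -0.04, -0.02 and -0.01. The receptor kinase *GRK2* had -0.11 by diet (limma adjusted p = 0.0587), below the fold cut-off. *GRK3* had -0.22 (adjusted p = 0.0883) and was called with the array median as a covariate (-0.28, adjusted p = 0.0164) and with array weights (-0.25, adjusted p = 0.0295). The arrestin *ARRB2* had 0.18 (adjusted p = 0.162) and was called after quantile normalization (0.23, adjusted p = 0.0666) and with array weights (0.23, adjusted p = 0.0256). Of 9 other G protein subunits, 0 were called by diet and 1 by line. This was *GNG12*, a γ subunit, with -0.19 (SE 0.05, limma adjusted p = 0.0556) in low against high RFI pigs. Its lowest, median and highest values were 3.59, 3.88 and 4.10 in HF low RFI and 3.77, 3.98 and 4.25 in HF high RFI pigs, and 3.51, 3.80 and 4.25 in LF low RFI and 3.68, 4.09 and 4.33 in LF high RFI pigs. The other *GNG12* probes had -0.10 and -0.04 and were not called. The line call of *GNG12* held in 13 of 17 other settings, with an adjusted p of up to 0.631.

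Among 5 other kinase A subunits and inhibitors, *PRKAR2A*, the regulatory subunit RIIα, was lower under the HF diet. Its probe A_72_P122731 had medians of 2.28 in HF low RFI, 2.31 in HF high RFI, 2.56 in LF low RFI and 2.43 in LF high RFI pigs, and the ranges of all groups overlapped. By diet the difference was -0.21 (SE 0.06, limma adjusted p = 0.0154), and the other probe of the gene had 0.04 (adjusted p = 0.713). By line *PRKAR1A*, the regulatory subunit RIα, was higher in low RFI pigs by 0.24 (SE 0.07, adjusted p = 0.0599). Its medians were 4.05 and 3.78 in HF low and high RFI pigs, and 4.22 and 3.97 in LF low and high RFI pigs. Its other 4 probes were not called, with line estimates of 0.19, 0.24, 0.06 and -0.43. The line call of *PRKAR1A* held in 12 of 17 other settings, with an adjusted p of up to 0.688.

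Among 11 anchoring proteins, which hold kinase A in place, *AKAP13* was higher under the HF diet by 0.22 (SE 0.08, limma adjusted p = 0.0453). Its lowest, median and highest values were 4.21, 4.46 and 4.84 in HF low RFI and 3.85, 4.59 and 4.78 in HF high RFI pigs, and 4.0, 4.29 and 4.76 in LF low RFI and 3.55, 4.29 and 4.79 in LF high RFI pigs. The 6 kept *AKAP13* probes had diet estimates of 0.18 to 0.22, and 5 were called.

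Among 9 cAMP effectors and transcription factors, *NR4A3*, an orphan nuclear receptor that cAMP induces, was lower under the HF diet, with -0.61 (SE 0.21, -1.03 to -0.18, limma adjusted p = 0.0552). Its values were -1.59, -0.22 and 0.47 in HF low RFI and -1.78, -0.18 and 0.51 in HF high RFI pigs, and -0.20, 0.37 and 1.17 in LF low RFI and -1.41, -0.05 and 2.11 in LF high RFI pigs. LF low RFI pigs had the highest median, and the groups overlapped. The diet call of *NR4A3* held in 14 of 17 other settings, with an adjusted p of up to 0.317. Of the other 3 kept probes 1 was called (-0.51, adjusted p = 0.0383), and the others had -0.56 (adjusted p = 0.0935) and -0.08 (adjusted p = 0.806).

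Of 7 tested lipolytic proteins downstream of the kinase, 1 was called. *MGLL*, the monoacylglycerol lipase of the last step of lipolysis, was lower under the HF diet, with -0.39 (SE 0.11, -0.61 to -0.16, limma adjusted p = 0.0193). Its values were 2.81, 3.22 and 3.89 in HF low RFI and 2.39, 2.83 and 3.5 in HF high RFI pigs, and 2.79, 3.71 and 4.44 in LF low RFI and 2.52, 3.27 and 3.63 in LF high RFI pigs. By line it had 0.38 (adjusted p = 0.0942) and was not called, while it was called at the same 0.38 with slide (adjusted p = 0.0625) or scan date (adjusted p = 0.0769) as a block, and at 0.40 with array weights (adjusted p = 0.0206). Its line estimate ran from 0.23 to 0.52 over 17 other settings.

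The kinase's own targets on the droplet had diet estimates near 0. *LIPE*, hormone-sensitive lipase, had group medians of 8.59, 8.71, 8.76 and 8.50 in the low and high RFI pigs of the HF diet and then of the LF diet, and a diet estimate of 0.00 (SE 0.07, adjusted p = 0.995). *PLIN1*, perilipin, had medians of 7.87, 7.82, 7.89 and 7.75 and an estimate of 0.02 (SE 0.06, adjusted p = 0.849). *PNPLA2*, adipose triglyceride lipase, had medians of 7.86, 7.75, 8.11 and 7.89 and an estimate of -0.09 (SE 0.06, adjusted p = 0.383). *ABHD5*, its co-activator, had medians of 3.44, 3.14, 4.14 and 3.23 and an estimate of -0.08 (SE 0.16, adjusted p = 0.801).

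The carriers of the products gave -0.11 (SE 0.04, adjusted p = 0.0777) for the fatty acid binding protein *FABP4*, below the fold cut-off, and 0.02 (SE 0.09, adjusted p = 0.928) for the glycerol channel *AQP7*. *G0S2*, an inhibitor of adipose triglyceride lipase, had no kept probe. By line the 7 lipolytic genes had estimates from 0.08 to 0.43 and none was called without a block or weights. The most positive was that of *ABHD5* (0.43, SE 0.16, adjusted p = 0.213), which ran from 0.06 to 0.81 over 17 other settings and was called in 1 of them, with array weights (0.48, adjusted p = 0.0563).

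**Figure D5:**
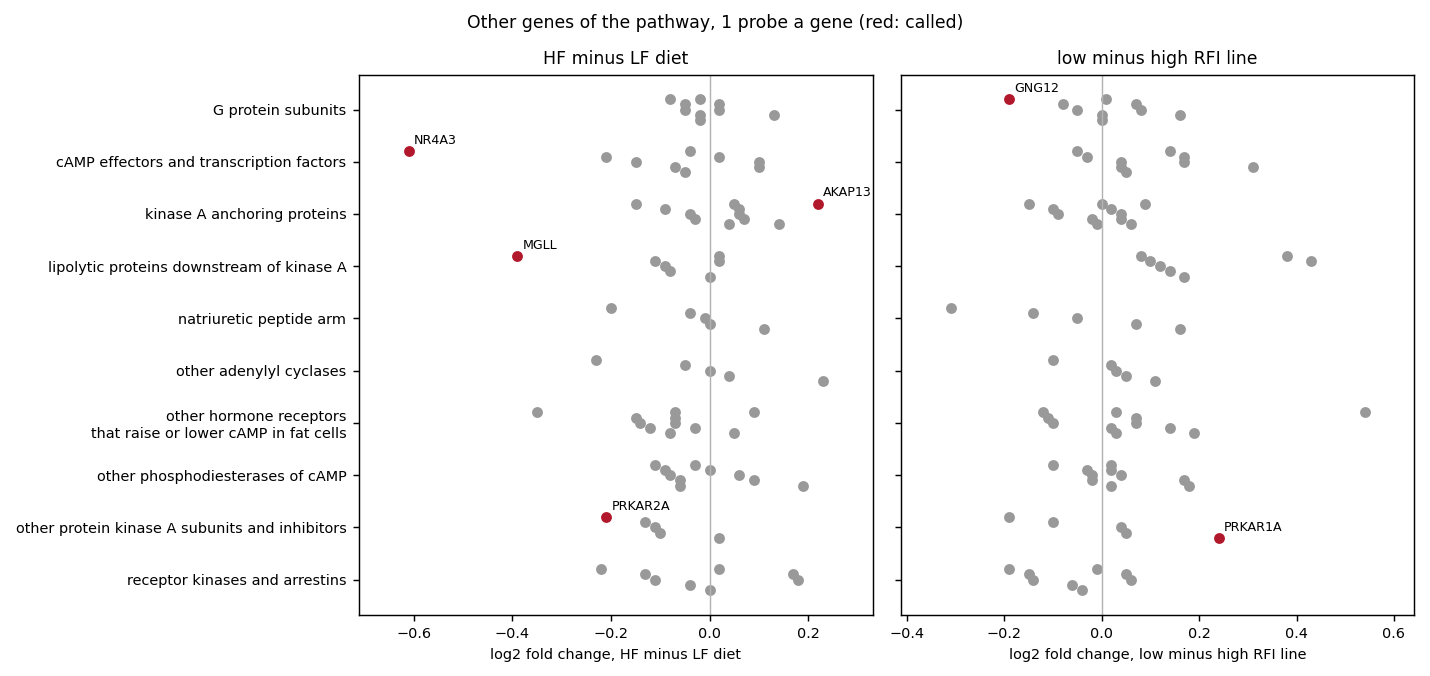
Log2 fold changes of 80 other pathway genes in 10 lists, 1 probe a gene (points), HF minus LF diet on the left and low minus high RFI line on the right, with called genes in red and named. Called are *NR4A3*, *MGLL* and *PRKAR2A* (lower) and *AKAP13* (higher) under diet, and *GNG12* (lower) and *PRKAR1A* (higher) under line.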

How the data were processed

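The deposited scanner files hold, per spot, the brightness on a linear scale (intensity) that the authors obtained with Agilent Feature Extraction, in 1 colour (Cy3). The authors also deposited log2 values of 38987 probes, which matched the log2 median signal minus the array median (largest difference 4.87e-09) and were used as an alternative. R 2.10.0 stands in the submitters' processing notes.

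Here, the log2 processed signal of 44356 kept probes was centred on each array's median. Spots flagged as non-uniform or population outliers were missing (156), 0 were saturated, and the array annotation gives no positions. Group means of the 4 groups were fitted with limma 3.58.1 (eBayes with trend, R 4.3.3), where the study used analysis of variance. The steps were tested on simulated data. Depth cannot be counted on arrays, and 12 pigs a group limit the precision. The members and gene lists were chosen with earlier results of these data known. Named were every kept probe of the 9 genes, other pathway genes called at the probe with the highest mean signal, the lipolytic proteins, and the 3 most alike symbols a gene. Symbols came from the array files and the Sscrofa11.1 gene table. Alternatives covered scaling, background, filters, batches, weights and the replicate number. The value of 1 marker gene is not reported here.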

Additional observations from a re-analysis of the deposited data

How the results depend on the processing

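Under 16 or 17 other settings each, 980 values of the 29 probes by diet and by line were computed. Of these, 838 kept their direction and side of the threshold, 6 lost and 2 gained a call, and 134 changed sign with neither value called, the largest at 0.22. By diet the called probes of the 29 (1 in the report) were 0 with the median signal, without a filter on dim probes, within each scan date, and with the array median as a covariate. They were 2 with a replicate block, which added *PRKAR2B* O9264 (0.20, adjusted p = 0.0336), and 1, *ADCY6* O13026, with array position as a block. Within the low RFI line array weights gave 1 in place of 0. By line, for the interaction and within the high RFI line the count was 0 under every setting run. Of the 80 pathway genes, diet called 4 in the report, 2 within the first scan date, 0 within the second, and 7 with the covariate and with array weights. Line called 2 in the report, 0 without a filter, within the second scan date, with array position, and with the mean of a gene's probes, 1 within the first scan date and with background outlier flags, 4 with slide or scan date as a block, 5 with a replicate block, *MGLL* (0.38, adjusted p = 0.0391) among them, and 7 with array weights. Of 28 pairs, 8 were correlated in the report, 2 with slide means removed, 2 within the first scan date (1 of them among the 8), 3 within the second, 13 with the mean of a gene's probes (7 among the 8) and 5 with 75th percentile scaling. The causes were not tested, and the effect of the smaller number of pigs within a scan date was not tested either. Over all kept probes 42.9% of the diet calls were higher under HF, 67.1% with 75th percentile scaling and 50.5% after quantile normalization.

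The labels do not say what a replicate number marks, and the numbers were not taken as pairs. The mean r of the deviations of same-numbered arrays was 0.16 over 72 pairs, 48 of which were over 0.1, against 0.07 for other numbers on the same slide and -0.04 between slides. In numbers 5 and 6 all 6 pairs were over 0.1, and 16 of 48 arrays were closest to one of their own number, which is a hint from the data and not from the design. With the replicate block diet called 7127 probes instead of 5791 and line 1140 instead of 606. Signal over background limits *ADRB3* most.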

Other observations

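A few values outside the comparisons were chosen after they were seen. Of the 80 other pathway genes, 4 were called by diet only at a kept probe other than the one with the highest mean signal. They were *GNAI3*, the α subunit of an inhibitory G protein (-0.22, limma adjusted p = 0.000598), *GNB1*, a β subunit (-0.14, adjusted p = 0.0135), the anchoring protein *AKAP9* (0.15, adjusted p = 0.0116) and the coactivator *PPARGC1A* (0.66, adjusted p = 0.0288). At the probe with the highest mean signal these genes had 0.02, -0.05, 0.07 and 0.10. *HCAR1*, the lactate receptor that lowers cAMP in fat cells, had the most positive line estimate of the 80 genes, 0.54 in low against high RFI pigs (SE 0.16, limma adjusted p = 0.0863), and was not called in the report. It was called in 8 other settings, namely normexp background, median signal, the deposited table, slide, scan date or replicate number as a block, the first scan date alone, and array weights, and in none of the rest.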
